A study of Homo sapiens with 16 samples.

Results

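The cancer-testis antigen families MAGEA, MAGEB, MAGEC, GAGE, PAGE, XAGE, SSX and CTAG were followed across 16 RNA libraries of HT-1080, an established human fibrosarcoma line. Members were taken by gene symbol, as names beginning with GAGE, XAGE or CTAG, or with MAGEA, MAGEB, MAGEC, PAGE or SSX and then a digit. This matched 79 of 24105 listed genes. Of these, 71 belong to the families and all 71 lie on the X chromosome, with 14 MAGEA, 10 MAGEB, 3 MAGEC, 22 GAGE, 6 PAGE, 5 XAGE, 8 SSX and 3 CTAG genes. The other 8, SSX2IP and 7 CTAGE genes, share only the letters of the name, lie on other chromosomes and were kept apart. Values were present for 57 of the 71 family members, and 14 carried none. Of the 57, 27 averaged at least 1 FPKM over the 16 libraries and were tested, and 30 were below that mean.

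Cancer-testis genes are transcribed in germ cells and stay silent in most adult tissues, where DNA methylation of their promoters is part of the silencing. Tumour cells with low methylation often transcribe them, and their peptides can be recognised by T cells. MAGE proteins bind RING-type ubiquitin ligases, SSX proteins are chromatin-bound transcriptional repressors known from the SS18-SSX fusions of synovial sarcoma, CTAG1A and CTAG1B encode the antigen NY-ESO-1, and GAGE, PAGE and XAGE proteins are small and related to each other. LSH, encoded by HELLS, is a chromatin remodeler needed for full DNA methylation.

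The libraries form 8 groups of 2. Cells overexpressed WDR76 (oeWDR76), a WD40-repeat protein, or received siRNA against DCAF8 and LSH together (siDCAF8+siLSH), siRNA against DCAF8 alone (siDCAF8), or the siRNA control siNS. DCAF8 brings substrates to CRL4 ubiquitin ligases. Each genotype was measured without erastin and with erastin at 10 µM for 24 h, a compound that blocks cystine uptake and leads to ferroptosis. No empty-vector library was analysed here, and for oeWDR76 the vector, its promoter and the number of clones are not stated in the labels. The labels do not tell whether both libraries of a group come from separate cultures, and p-values then measure only the spread between libraries, which may be technical.

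WDR76 stood at 242 to 324 FPKM in the 4 oeWDR76 libraries, against 2.89 to 3.68 FPKM in the 4 siNS libraries. Without erastin limma also called it higher than siNS in siDCAF8+siLSH, at 7.53 and 7.69 FPKM (log2 1.04, adjusted p = 3.21e-07). The same held in siDCAF8, at 5.0 and 5.31 FPKM (log2 0.55, adjusted p = 0.00032). With erastin these differences were 0.57 (adjusted p = 0.000201) and 0.10, the latter not called (adjusted p = 0.419). DCAF8 stood at 14.3 to 17.4 FPKM in siDCAF8+siLSH and 10.3 to 12.2 FPKM in siDCAF8, against 36.7 to 40.4 FPKM in siNS. In oeWDR76 DCAF8 was at 30.89 to 32.84 FPKM, called lower than siNS without erastin (log2 -0.31, adjusted p = 0.00265) and with it (log2 -0.23, adjusted p = 0.0176). HELLS without erastin was 4.05 and 4.07 FPKM in siDCAF8+siLSH, 6.83 and 7.45 FPKM in siDCAF8, and 4.05 and 3.98 FPKM in siNS, so that untreated co-depleted cells were below siDCAF8 but level with siNS. With erastin HELLS was 2.12 and 2.36 FPKM in siDCAF8+siLSH, 5.85 and 5.89 FPKM in siDCAF8, and 3.60 and 3.37 FPKM in siNS, and it fell in siDCAF8+siLSH against siNS (log2 -0.47, adjusted p = 2.14e-05). In oeWDR76 it was 10.48 to 11.24 FPKM over both treatments, a rise of 1.24 log2 against siNS without erastin (adjusted p = 1.39e-10). The oeWDR76 libraries stood apart in composition: their levels, set against each gene's mean, were higher by 0.182 to 0.228 log2 per 10% GC content of the gene, against slopes of -0.153 to 0.029 in the other 12 libraries, and their summed FPKM was 495857 to 503867, against 436290 to 455662. As a check of the cell line's label, the mesenchymal gene VIM was at 1273 to 2067 FPKM in all libraries, while the fibroblast gene THY1 was at most 0.14 FPKM. Of the epithelial markers EPCAM, CDH1 and KRT5 were at most 0.51 FPKM but CLDN4 was at 0.80 to 5.58 FPKM, the leukocyte marker PTPRC was at 0.97 to 2.05 FPKM, and the endothelial marker PECAM1 was at 0.70 to 3.16 FPKM.

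RefSeq promoter windows of 300 bases run from 250 bases before to 50 bases after the annotated gene start on GRCh38.p14. They were matched by gene number for 52 of the 71 members and 16 of the 27 tested ones, taking the window nearest the listed gene start. Shown are the windows of SSX1, which had the largest change of the singly mapped members in oeWDR76, of MAGEA3, whose window is identical to that of MAGEA6 with 0 base differences, of MAGEC2, which was not called in oeWDR76, and of XAGE2, whose values in oeWDR76 were near 0. The windows lie at chrX:48255142-48255441 on the plus strand for SSX1, chrX:152698544-152698843 on the plus strand for MAGEA3, chrX:142205241-142205540 on the minus strand for MAGEC2 and chrX:52368771-52369070 on the plus strand for XAGE2. Each is written 5′ to 3′ on the gene's strand, and capitals mark CG dinucleotides, the sites that DNA methyltransferases act on.
SSX1: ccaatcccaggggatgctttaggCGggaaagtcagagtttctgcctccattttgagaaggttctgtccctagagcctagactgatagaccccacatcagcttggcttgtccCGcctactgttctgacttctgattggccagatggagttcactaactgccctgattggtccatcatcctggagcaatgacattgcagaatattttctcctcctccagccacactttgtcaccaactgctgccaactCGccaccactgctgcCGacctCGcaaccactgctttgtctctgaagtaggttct
MAGEA3: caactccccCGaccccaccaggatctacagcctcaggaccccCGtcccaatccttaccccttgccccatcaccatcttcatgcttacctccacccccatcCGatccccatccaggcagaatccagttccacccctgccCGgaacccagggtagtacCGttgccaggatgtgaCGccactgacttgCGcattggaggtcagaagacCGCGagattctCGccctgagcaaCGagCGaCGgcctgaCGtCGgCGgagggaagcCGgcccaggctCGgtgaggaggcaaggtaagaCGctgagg
MAGEC2: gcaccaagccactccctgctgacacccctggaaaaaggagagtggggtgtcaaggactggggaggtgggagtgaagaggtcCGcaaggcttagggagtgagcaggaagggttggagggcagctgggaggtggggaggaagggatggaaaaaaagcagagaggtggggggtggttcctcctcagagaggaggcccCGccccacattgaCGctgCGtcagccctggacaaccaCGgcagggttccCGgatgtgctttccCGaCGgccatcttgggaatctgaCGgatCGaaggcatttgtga
XAGE2: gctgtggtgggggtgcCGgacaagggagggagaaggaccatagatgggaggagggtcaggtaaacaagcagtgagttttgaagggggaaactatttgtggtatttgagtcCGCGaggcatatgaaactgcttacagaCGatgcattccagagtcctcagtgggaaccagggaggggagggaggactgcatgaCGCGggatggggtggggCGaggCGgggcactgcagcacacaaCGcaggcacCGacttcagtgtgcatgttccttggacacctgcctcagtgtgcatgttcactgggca
The SSX1 window holds 5 CG dinucleotides, the MAGEA3 window 19, and the MAGEC2 and XAGE2 windows 10 each. Over the 52 matched members the median was 12 CG per window, with a range of 1 to 21, against a median of 14 and quartiles of 4 and 28 over all 34943 windows of the same length. The median was 12.5 over the 16 matched members that were tested and 12 over the matched members that were not. CCGGAA, the core letters bound by ETS factors, was found on either strand in 3 of 52 members (MAGEA3, MAGEA6 and MAGEB6), which is 5.77% of them, against 17.2% of all windows. GGGCGG was found in 14 of 52, or 26.9%, against 44.9% of all windows. TATAAA was found in 0 of 52, against 11.6% of all windows.

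HT-1080 cells transcribed 7 of the 8 families in every group, and within most families a few genes carried nearly all of the signal. GAGE5, GAGE2D and GAGE12G held 46.6%, 28.6% and 18.7% of the GAGE sum. SSX1 and SSX3 held 58.0% and 33.8% of the SSX sum, MAGEB2 96.9% of MAGEB, MAGEC2 99.6% of MAGEC and PAGE5 99.9% of PAGE. MAGEA was spread over MAGEA3, MAGEA6, MAGEA12, MAGEA1 and MAGEA2B, with 21.4%, 20.6%, 17.8%, 16.9% and 13.0%. CTAG2 held 49.8% of the CTAG sum and CTAG1A 45.8%. No XAGE gene averaged 1 FPKM. Of the 30 members below that mean, 22 never reached 0.5 FPKM in any library, and the other 8 were GAGE12B, GAGE2A, GAGE2B, GAGE8, MAGEA10, MAGEB10, SSX5 and XAGE2, none above 2.15 FPKM.

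Read sharing limits what a single gene's FPKM means in these families. All of the 50-base windows of SSX2 coding transcripts are found in SSX2B, and the same is true of SSX4 in SSX4B. The share is 96.4% for MAGEA2 in MAGEA2B, 90.3% for CTAG1A in CTAG1B, and 54.9% for MAGEA3 in MAGEA6. In any other member it is 100% for GAGE12G and 43.1% for CTAG2. In contrast, it is 6.89% for SSX1, 0.662% for MAGEA1, 13.3% for MAGEA12 and 4.44% for PAGE5 in any other member, and 0% for MAGEB2, MAGEC2 and MAGEA11. Listed intervals overlap those of another member for 18 of 22 GAGE genes, so sums over families or copies are given for these and single copies are uncertain.

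Summed over all families, the level was 2329.8 and 2406 FPKM in oeWDR76, 2112 and 2338 FPKM in siDCAF8+siLSH, 1827 and 1918 FPKM in siDCAF8, and 1690.0 and 1737 FPKM in siNS, all without erastin. Each of the 3 altered genotypes lay above siNS in both libraries. In bulk RNA, a change in the number of cells transcribing a gene and a change in RNA per cell cannot be told apart. With erastin the sums were 2304 and 2450.4 FPKM in oeWDR76, 2175 and 2198 FPKM in siDCAF8+siLSH, 1832 and 1788 FPKM in siDCAF8, and 1671 and 1675 FPKM in siNS, again without overlap with siNS. The size of the difference varied between families: without erastin SSX was 2.80 times the siNS level in oeWDR76, while the MAGEC sum in oeWDR76 overlapped siNS.

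**Figure D1:**
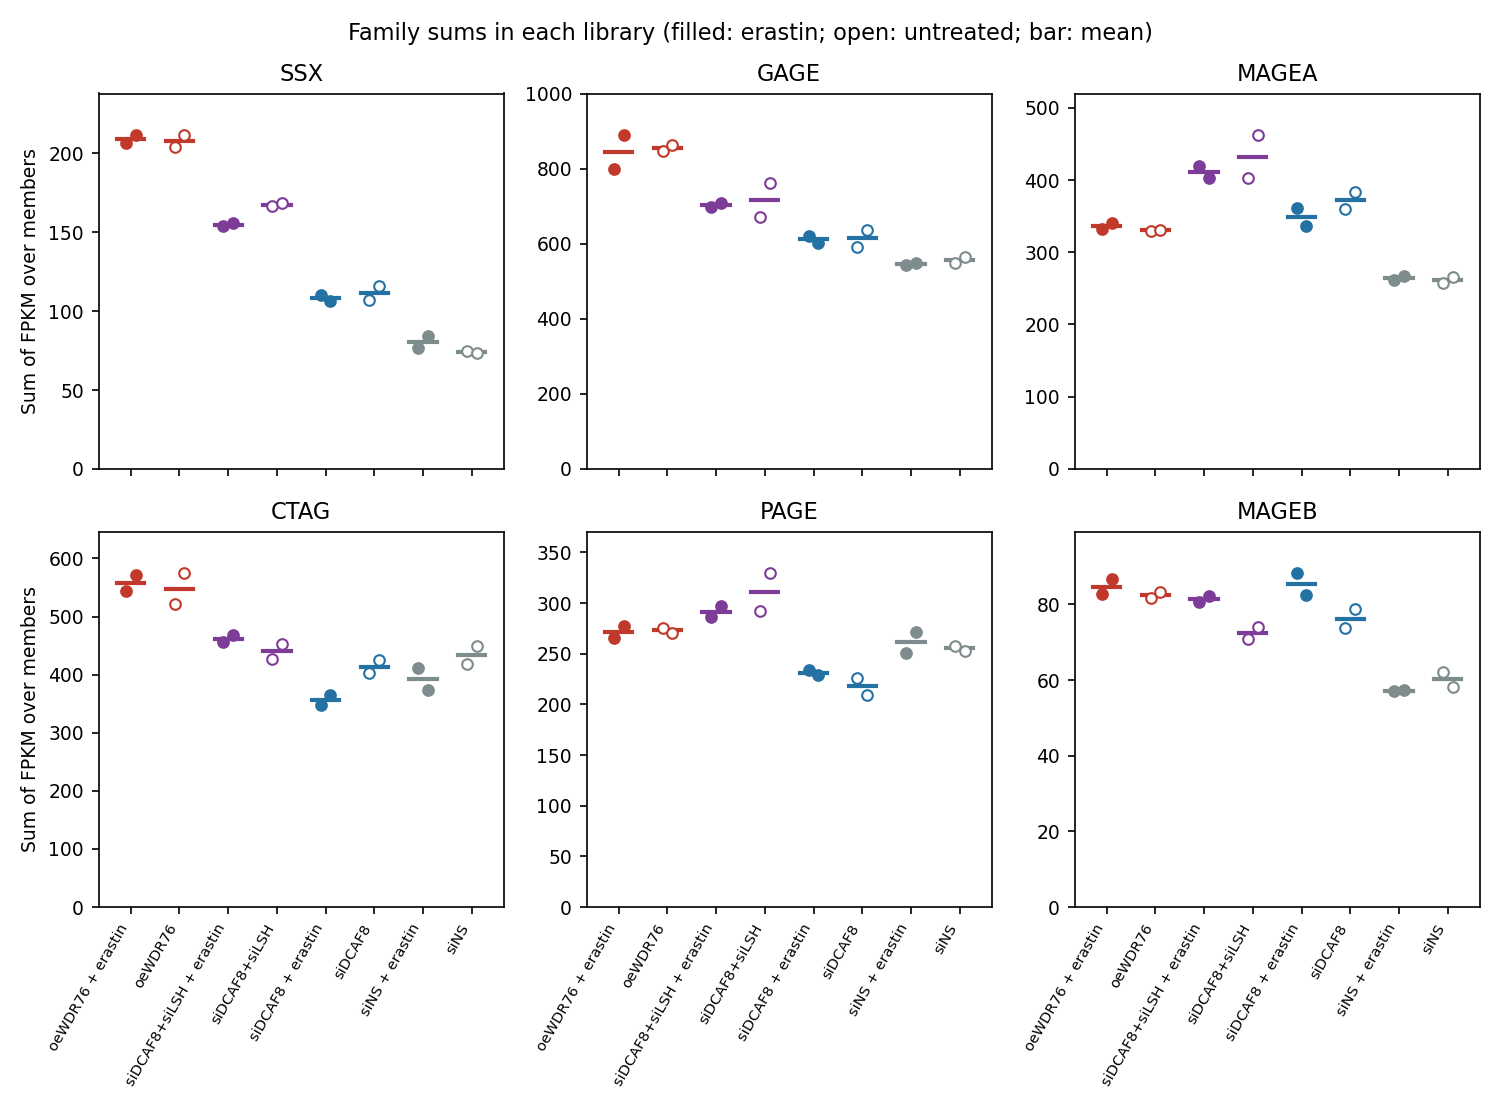
Summed FPKM (vertical axis) of SSX, GAGE, MAGEA, CTAG, PAGE and MAGEB in every library, by group, with filled points for erastin, open points for untreated libraries and a bar at each mean of n = 2. The SSX sum is highest in oeWDR76 (204 to 211 FPKM) and lowest in siNS (73.4 to 84.0 FPKM), and the MAGEA sum is highest in siDCAF8+siLSH (403 to 462 FPKM).

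Among the 27 tested members, limma called 15 higher and 0 lower in oeWDR76 against siNS without erastin, where 41.6% of all 11260 tested genes were called higher and 32% lower. 1 member was lower at an unadjusted p under 0.05. With erastin 16 were higher and 0 lower, against 45.2% and 31% of all genes, and 0 were lower at an unadjusted p under 0.05. The member median was 0.39 log2 without erastin, against 0.07 over all genes, and 0.50 with erastin, against 0.11. These splits depended on scaling: with a correction for GC content and length, which 22 of the 27 members could receive, 6 were higher and 6 lower without erastin, and 7 higher and 6 lower with it. Quantile normalization gave 11 higher and 2 lower, and 12 higher and 2 lower with erastin. The shares over all genes above are from the fit without these changes, and none is given beside these splits. Median-ratio scaling lowered the FPKM of oeWDR76 relative to siNS with erastin by 0.114 log2, the 1 comparison of 2 groups in which its shift was over 0.1, and members with low FPKM moved less on the log2(FPKM + 1) scale.

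In siDCAF8+siLSH against siNS, 15 of 27 members were higher and 0 lower without erastin, against 35.9% and 30.9% of all genes, and 0 members were lower at an unadjusted p under 0.05. With erastin 19 were higher and 1 lower, against 39.3% and 26.7%. The lower member was MAGEB17. In siDCAF8 against siNS, 10 were higher and 1 lower without erastin, against 31% and 29.9% of all genes, and 11 were higher and 1 lower with erastin, against 34.8% and 30%. The lower member was PAGE5 in both. The GC and length correction left 15 higher and 0 lower of 22 in siDCAF8+siLSH without erastin and 9 higher and 0 lower of 22 in siDCAF8. No share over all genes is given for that correction, so these counts cannot be set beside one. Of 359 other X-linked genes tested, 119 were higher and 137 lower in oeWDR76, 103 and 118 in siDCAF8+siLSH, and 78 and 136 in siDCAF8, all without erastin. All 3 comparisons share the same siNS libraries.

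**Figure D2:**
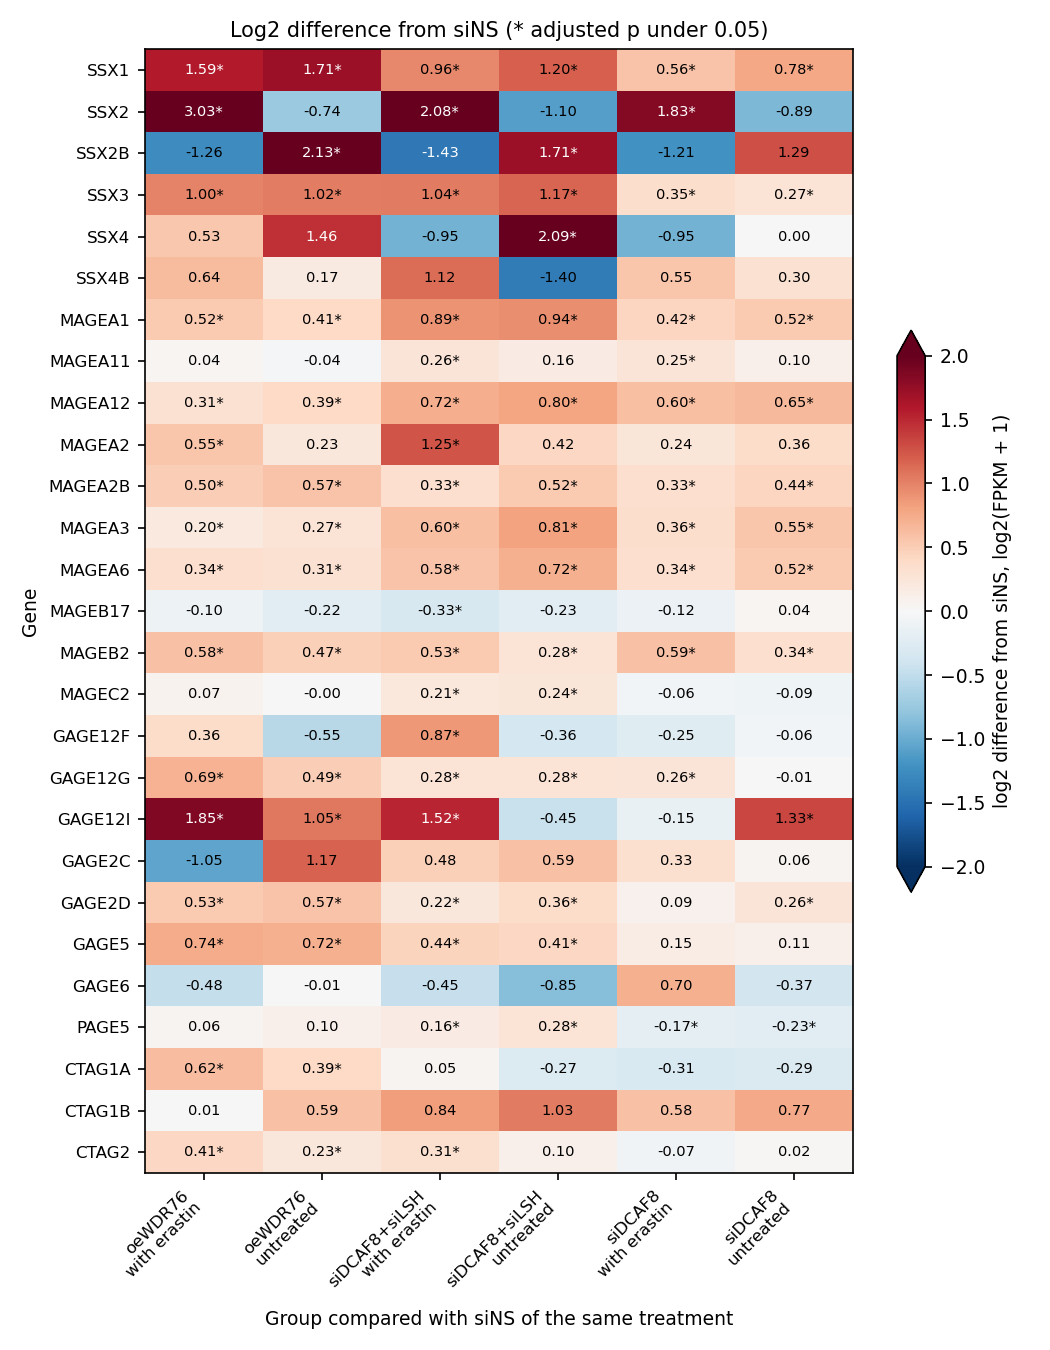
Log2 difference of each tested member from siNS of the same treatment, on the log2(FPKM + 1) scale. Members are in rows by family and the altered genotypes, with erastin and untreated, are in columns. Asterisks mark an adjusted p under 0.05. SSX1 and SSX3 are called higher than siNS in every column, while the copies SSX2 and SSX2B differ in sign in untreated oeWDR76.

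Of the families with tested members, SSX had the largest sum ratios to siNS in oeWDR76 and siDCAF8+siLSH under both treatments and in siDCAF8 without erastin, while in siDCAF8 with erastin MAGEB did (1.491 times, against 1.349 for SSX). SSX1 is a repressor best known from the SS18-SSX1 fusion. Without erastin it was at 129 and 129.6 FPKM in oeWDR76, 90.6 and 90.7 FPKM in siDCAF8+siLSH, 64.9 and 70.2 FPKM in siDCAF8, and 39.3 and 38.55 FPKM in siNS. With erastin it was at 129 and 131 FPKM in oeWDR76, 83.5 and 84.35 FPKM in siDCAF8+siLSH, 65.7 and 60.9 FPKM in siDCAF8, and 39.2 and 46.0 FPKM in siNS. The 4 genotypes did not overlap under either treatment and kept the same order. Against siNS, SSX1 rose by 1.71 log2 in oeWDR76 (SE 0.065, adjusted p = 8.92e-13), by 1.20 in siDCAF8+siLSH (adjusted p = 1.72e-10) and by 0.78 in siDCAF8 (adjusted p = 3.82e-08), all without erastin. With erastin the rises were 1.59, 0.965 and 0.56 (adjusted p = 2.06e-12, 2.55e-09 and 1.13e-06). After the GC and length correction the rise in oeWDR76 was 1.46 without erastin and 1.29 with it, both still called.

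SSX3, a close relative of SSX1, separated the groups in another order. Without erastin it was at 57.0 and 62.3 FPKM in oeWDR76, 64.0 and 68.6 FPKM in siDCAF8+siLSH, 34.0 and 36.1 FPKM in siDCAF8, and 29.1 and 28.6 FPKM in siNS. It was highest in siDCAF8+siLSH, followed by oeWDR76, siDCAF8 and siNS, and no 2 genotypes overlapped. Against siNS it rose by 1.02 log2 in oeWDR76 (SE 0.057, adjusted p = 1.03e-10), by 1.17 in siDCAF8+siLSH (adjusted p = 5.44e-11) and by 0.27 in siDCAF8 (adjusted p = 0.000618). With erastin the differences were 0.996, 1.04 and 0.35 (adjusted p = 1.05e-10, 2.58e-10 and 4.28e-05). Adding the LSH siRNA to the DCAF8 siRNA went with a rise of SSX3 by 0.90 log2 without erastin and 0.69 with it (adjusted p = 2.08e-08 and 1.07e-07), and of SSX1 by 0.42 and 0.40 (adjusted p = 7.2e-05 and 9.27e-05). DCAF8 itself was higher in siDCAF8+siLSH than in siDCAF8, by 0.37 log2 without erastin and 0.54 with it, and its part in these differences was not tested.

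**Figure D3:**
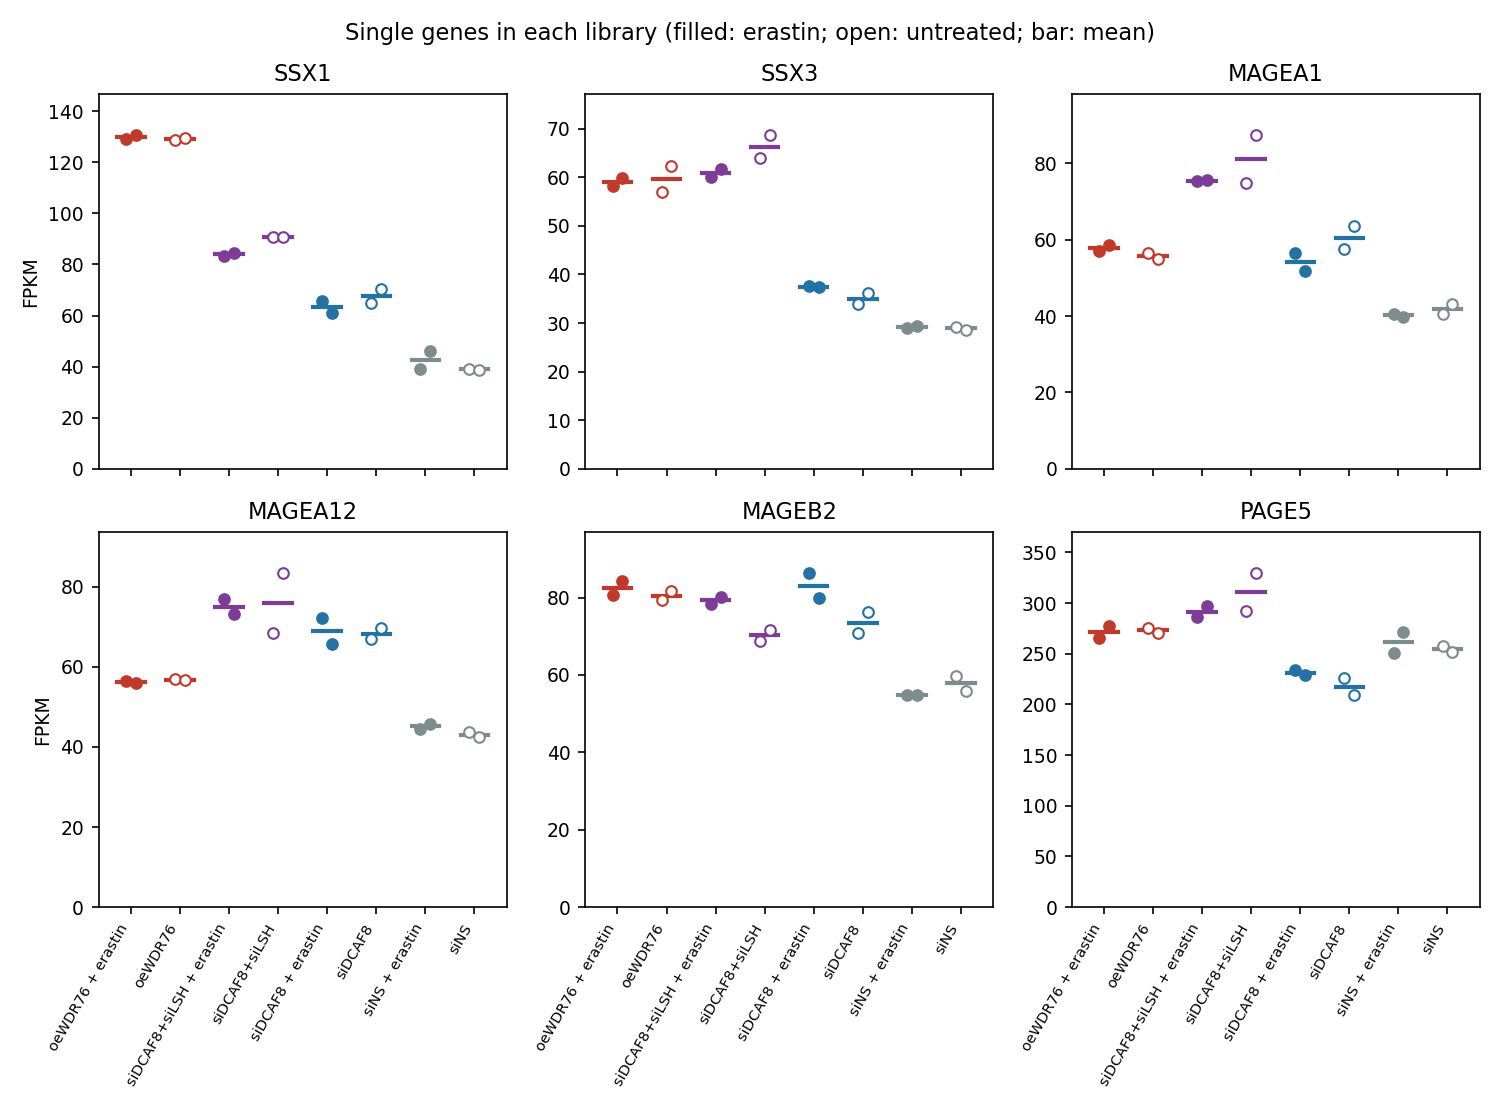
FPKM (vertical axis) of SSX1, SSX3, MAGEA1, MAGEA12, MAGEB2 and PAGE5 in every library, by group, with filled points for erastin, open points for untreated libraries and a line at each group mean of n = 2. SSX1 lies at 4 separate levels by genotype, MAGEA1 and MAGEA12 have their highest means in siDCAF8+siLSH, and PAGE5 is lowest in siDCAF8.

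The remaining SSX signal came from the duplicated genes. SSX2 and SSX2B together were at 10.2 and 9.83 FPKM in oeWDR76, 6.88 and 5.30 FPKM in siDCAF8+siLSH, 5.00 and 5.99 FPKM in siDCAF8, and 3.84 and 3.99 FPKM in siNS without erastin. SSX4 and SSX4B together were at 6.54 and 7.86 FPKM in oeWDR76, 3.68 and 2.88 FPKM in siDCAF8+siLSH, 2.04 and 2.48 FPKM in siDCAF8, and 1.54 and 1.74 FPKM in siNS. Both sums were highest in oeWDR76 and lowest in siNS without overlap, at 2.52 and 4.195 times the siNS mean in oeWDR76. With erastin they were 2.10 and 2.649 times the siNS mean in oeWDR76, but in siDCAF8 the SSX4 sum was below siNS, at 1.86 and 2.02 FPKM in siDCAF8 and 2.71 and 3.01 FPKM in siNS, and the SSX2 sum overlapped siNS, at 4.84 and 5.33 FPKM in siDCAF8 and 5.22 and 4.49 FPKM in siNS. Within the sums the copies were not stable: SSX4 was listed at 6.54 and 0 FPKM in the 2 oeWDR76 libraries, while SSX4B was listed at 0 and 7.86 FPKM. SSX5, below the mean of 1 FPKM, was at 1.61 and 1.72 FPKM in oeWDR76 and at 0.59 and 0.30 FPKM in siNS. In a limma fit with no filter on low values it was 0.89 log2 higher (SE 0.226, adjusted p = 0.00612), where 30.3% of 17552 genes were called higher and 22.8% lower.

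**Figure D4:**
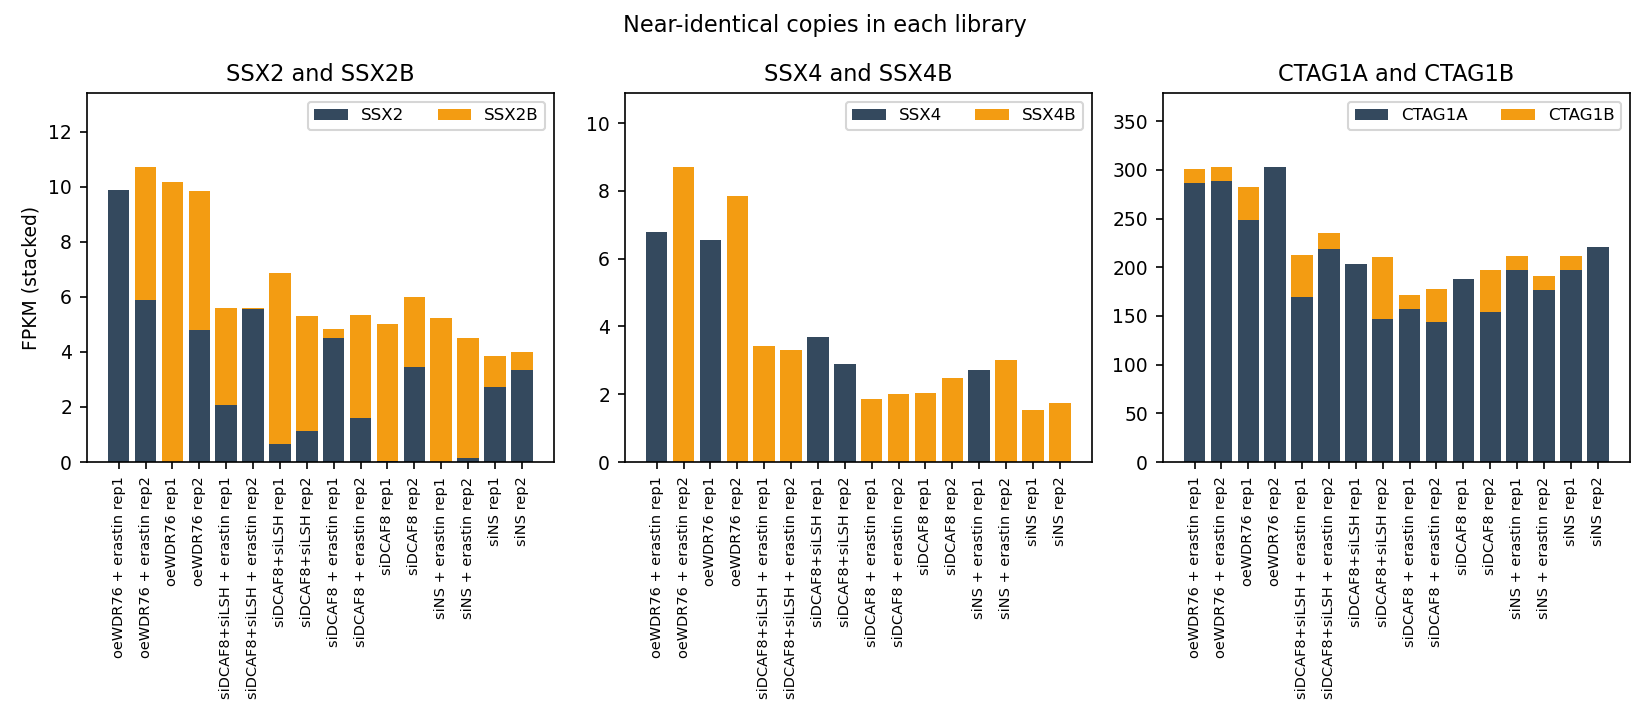
Stacked FPKM of the copies SSX2 and SSX2B, SSX4 and SSX4B, and CTAG1A and CTAG1B in every library. The stacks of a group's 2 libraries have similar heights while the split between copies changes, as for SSX4 and SSX4B in oeWDR76, where each library lists 1 copy at 0.

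The MAGEA family was highest in the co-depleted cells. Its sum was 329 and 331 FPKM in oeWDR76, 403 and 462 FPKM in siDCAF8+siLSH, 361 and 383 FPKM in siDCAF8, and 257 and 266 FPKM in siNS without erastin, with siNS lowest. With erastin it was 332 and 341 FPKM in oeWDR76, 420.1 and 403 FPKM in siDCAF8+siLSH, 362 and 336 FPKM in siDCAF8, and 261 and 268 FPKM in siNS. Against siNS the sum was 1.26 times as high in oeWDR76, 1.655 times in siDCAF8+siLSH and 1.42 times in siDCAF8 without erastin, and 1.27, 1.555 and 1.32 times with erastin. In each of the 3 comparisons with siNS without erastin, limma called 5 of 7 tested MAGEA genes higher and 0 lower, where 41.6%, 35.9% and 31% of all genes were called higher in oeWDR76, siDCAF8+siLSH and siDCAF8, but with the GC and length correction 1 was higher and 1 lower in oeWDR76, while 7 were higher in siDCAF8+siLSH and 5 in siDCAF8. The genes not called were MAGEA2, whose reads are shared with MAGEA2B, and MAGEA11, a coregulator of the androgen receptor, which was at 22.9 and 23.2 FPKM in oeWDR76, 25.25 and 28.4 FPKM in siDCAF8+siLSH, 24.7 and 26.6 FPKM in siDCAF8, and 25.5 and 22.2 FPKM in siNS.

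MAGEA1, a prototype antigen of the family, shares almost no 50-base window with other members. Levels without erastin were 56.4 and 55.0 FPKM in oeWDR76, 74.8 and 87.3 FPKM in siDCAF8+siLSH, 57.45 and 63.7 FPKM in siDCAF8, and 40.4 and 43.2 FPKM in siNS. Levels with erastin were 57.05 and 58.7 FPKM in oeWDR76, 75.4 and 75.5 FPKM in siDCAF8+siLSH, 56.5 and 51.9 FPKM in siDCAF8, and 40.7 and 39.7 FPKM in siNS. The siDCAF8+siLSH libraries were highest and siNS lowest under both treatments. Against siNS it rose by 0.41 log2 in oeWDR76 (SE 0.071, adjusted p = 6.45e-05), by 0.935 in siDCAF8+siLSH (adjusted p = 7.95e-09) and by 0.52 in siDCAF8 (adjusted p = 7.97e-06). With erastin the rises were 0.52, 0.89 and 0.42 (adjusted p = 4.23e-06, 1.57e-08 and 5.99e-05). The rise in oeWDR76 without erastin was 0.12 and not called after the GC and length correction (adjusted p = 0.112). MAGEA1 was 0.41 log2 higher in siDCAF8+siLSH than in siDCAF8 without erastin and 0.47 higher with it (adjusted p = 0.000176 and 4.45e-05).

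Without erastin, MAGEA12 and MAGEA3 had their highest mean in siDCAF8+siLSH, followed by siDCAF8, oeWDR76 and siNS. MAGEA12 was at 56.95 and 56.7 FPKM in oeWDR76, 68.4 and 83.4 FPKM in siDCAF8+siLSH, 66.9 and 69.7 FPKM in siDCAF8, and 43.7 and 42.6 FPKM in siNS. It rose against siNS by 0.39 log2 in oeWDR76 (SE 0.073, adjusted p = 0.000128), by 0.795 in siDCAF8+siLSH (adjusted p = 7.1e-08) and by 0.65 in siDCAF8 (adjusted p = 9.96e-07). MAGEA3, which together with MAGEA6 partners TRIM28 in ubiquitin ligase complexes, was at 67.4 and 65.9 FPKM in oeWDR76, 92.9 and 102 FPKM in siDCAF8+siLSH, 78.5 and 84.0 FPKM in siDCAF8, and 52.6 and 57.8 FPKM in siNS. MAGEA3 rose by 0.27 log2 in oeWDR76 (SE 0.062, adjusted p = 0.00091), by 0.81 in siDCAF8+siLSH (adjusted p = 9.29e-09) and by 0.55 in siDCAF8 (adjusted p = 1.08e-06). Without erastin the oeWDR76 differences of both genes lost their calls with the GC and length correction, at 0.11 for MAGEA12 (adjusted p = 0.163) and -0.04 for MAGEA3 (adjusted p = 0.532). With erastin the same correction turned MAGEA12 to -0.02, not called (adjusted p = 0.826), and MAGEA3 to -0.17, called lower (adjusted p = 0.0128). Quantile normalization ended the MAGEA3 call without erastin (0.093, adjusted p = 0.156) and the MAGEA12 call with erastin (0.107, adjusted p = 0.165). With erastin and no correction MAGEA12 differed from siNS by 0.31, 0.72 and 0.60 and MAGEA3 by 0.20, 0.60 and 0.36 in oeWDR76, siDCAF8+siLSH and siDCAF8, all called. The MAGEA3 call in oeWDR76 with erastin was lost without oeWDR76/Erastin replicate 2 (0.175, adjusted p = 0.058), with median-ratio scaling (0.086, adjusted p = 0.221) and with quantile normalization (-0.033, adjusted p = 0.611). MAGEA3 and MAGEA6, which share reads and an identical promoter window, summed to 134 and 137 FPKM in oeWDR76, 178 and 200.1 FPKM in siDCAF8+siLSH, 154 and 168 FPKM in siDCAF8, and 107 and 114 FPKM in siNS.

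MAGEB2, reported to limit stress granule assembly in the male germ line, was at 79.3 and 81.6 FPKM in oeWDR76, 68.9 and 71.75 FPKM in siDCAF8+siLSH, 70.8 and 76.3 FPKM in siDCAF8, and 59.7 and 56.0 FPKM in siNS without erastin. With erastin it was at 80.7 and 84.3 FPKM in oeWDR76, 78.45 and 80.3 FPKM in siDCAF8+siLSH, 86.3 and 80.0 FPKM in siDCAF8, and 54.8 and 54.7 FPKM in siNS. All 12 libraries of the altered genotypes lay above all 4 siNS libraries. MAGEB2 rose against siNS by 0.47, 0.28 and 0.34 log2 in oeWDR76, siDCAF8+siLSH and siDCAF8 without erastin (SE 0.057, adjusted p = 1.11e-06, 0.000385 and 6.69e-05), and by 0.58, 0.53 and 0.59 with erastin (adjusted p = 7.04e-08, 5e-07 and 1.35e-07). MAGEC2, another TRIM28 partner, was steadier: 70.4 and 69.3 FPKM in oeWDR76, 78.95 and 87.0 FPKM in siDCAF8+siLSH, 63.2 and 68.0 FPKM in siDCAF8, and 69.6 and 70.2 FPKM in siNS. It rose in siDCAF8+siLSH by 0.24 log2 against siNS (SE 0.057, adjusted p = 0.00125) and by 0.33 against siDCAF8 (adjusted p = 0.000167). With erastin these were 0.21 and 0.265 (adjusted p = 0.00375 and 0.00106), of which the difference from siNS lost its call with median-ratio scaling (0.124, adjusted p = 0.0677) and without siDCAF8+siLSH/Erastin replicate 2 (0.167, adjusted p = 0.05). It was not called in oeWDR76 (adjusted p = 0.981) or siDCAF8 (adjusted p = 0.173) against siNS, but in oeWDR76 it was called lower with the GC and length correction (-0.223, adjusted p = 0.000775) and with quantile normalization (-0.189, adjusted p = 0.00483).

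The GAGE genes, a tandem array of near-identical copies, gave the largest sum of any family. It was 847 and 864.5 FPKM in oeWDR76, 672 and 763 FPKM in siDCAF8+siLSH, 592 and 638 FPKM in siDCAF8, and 548 and 566 FPKM in siNS without erastin. The GAGE sum with erastin was 799.9 and 889 FPKM in oeWDR76, 699 and 708 FPKM in siDCAF8+siLSH, 622 and 601 FPKM in siDCAF8, and 544 and 549 FPKM in siNS. The sum was 1.536 and 1.545 times the siNS level in oeWDR76 without and with erastin, 1.29 and 1.29 times in siDCAF8+siLSH, and 1.10 and 1.12 times in siDCAF8, with no library overlapping siNS. GAGE5, the largest contributor, was at 411 and 411 FPKM in oeWDR76, 305 and 361 FPKM in siDCAF8+siLSH, 254 and 285 FPKM in siDCAF8, and 252 and 247 FPKM in siNS. It rose by 0.72 log2 in oeWDR76 (SE 0.073, adjusted p = 1.33e-07) and 0.41 in siDCAF8+siLSH (adjusted p = 0.000103) and was not called in siDCAF8 (0.11, adjusted p = 0.213). With erastin it differed by 0.74, 0.44 and 0.15 (adjusted p = 7.61e-08, 5.33e-05 and 0.0878). Quantile normalization called it in siDCAF8 under both treatments (0.182 and 0.279, adjusted p = 0.0188 and 0.000976). With erastin it was also called in siDCAF8 with the replicate block (0.146, adjusted p = 0.0426) and when only the groups compared were fitted (0.146, adjusted p = 0.0301).

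GAGE2D, next in level, was at 238 and 243 FPKM in oeWDR76, 208 and 208.5 FPKM in siDCAF8+siLSH, 200.3 and 186 FPKM in siDCAF8, and 155 and 169 FPKM in siNS. It rose against siNS by 0.57 log2 in oeWDR76 (SE 0.067, adjusted p = 8.1e-07), 0.36 in siDCAF8+siLSH (adjusted p = 0.000152) and 0.255 in siDCAF8 (adjusted p = 0.00345). With erastin it rose by 0.53 and 0.22 in oeWDR76 and siDCAF8+siLSH (adjusted p = 1.72e-06 and 0.00752), and was not called in siDCAF8 (0.09, adjusted p = 0.242), except with quantile normalization (0.152, adjusted p = 0.0461). The call in siDCAF8 without erastin was lost without siNS replicate 1 (0.195, adjusted p = 0.0548). The call in siDCAF8+siLSH with erastin was lost with median-ratio scaling (0.136, adjusted p = 0.0959), without siNS/Erastin replicate 2 (0.154, adjusted p = 0.105) and without siDCAF8+siLSH/Erastin replicate 1 (0.168, adjusted p = 0.0881). GAGE12G was at 158 and 156 FPKM in oeWDR76, 134 and 137 FPKM in siDCAF8+siLSH, 104 and 118 FPKM in siDCAF8, and 113 and 110.3 FPKM in siNS. It rose by 0.49 log2 in oeWDR76 (SE 0.059, adjusted p = 9.58e-07) and 0.28 in siDCAF8+siLSH (adjusted p = 0.00051), and was not called in siDCAF8 (-0.01, adjusted p = 0.913), where the GC and length correction turned it to 0.138 and called it (adjusted p = 0.0228). GAGE12G with erastin was at 159 and 167 FPKM in oeWDR76, 117 and 127 FPKM in siDCAF8+siLSH, 122 and 119 FPKM in siDCAF8, and 101 and 99.97 FPKM in siNS, and rose against siNS by 0.69, 0.28 and 0.26 log2 (adjusted p = 1.29e-08, 0.000483 and 0.000868). Every 50-base window of GAGE12G occurs in another member, so its value cannot be separated from those of other copies. GAGE12F without erastin ran the other way, with its highest mean in siNS and its lowest in oeWDR76. GAGE5 and GAGE2D have no GC content in the reference used, and whether their rise in oeWDR76 holds under that correction was not tested.

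PAGE5, a GAGE-related gene that shares few windows with other members, was at 275 and 271 FPKM in oeWDR76, 292 and 329 FPKM in siDCAF8+siLSH, 226 and 209 FPKM in siDCAF8, and 258 and 252 FPKM in siNS without erastin. The siDCAF8+siLSH libraries were highest and siDCAF8 lowest, without overlap. It fell in siDCAF8 by 0.23 log2 against siNS (SE 0.061, adjusted p = 0.00359) and rose in siDCAF8+siLSH by 0.28 against siNS (adjusted p = 0.000641) and by 0.51 against siDCAF8 (adjusted p = 5.97e-06). With erastin these differences were -0.17, 0.16 and 0.33 (adjusted p = 0.0194, 0.0293 and 0.000279). The fall in siDCAF8 lost its call with the GC and length correction (-0.11, adjusted p = 0.0665, and -0.04 with erastin, adjusted p = 0.511) and without siDCAF8 replicate 2 (-0.172, adjusted p = 0.0543). Its call with erastin ended when siNS/Erastin replicate 2 (-0.116, adjusted p = 0.182) was left out, or when replicate 2 of siDCAF8/Erastin was (-0.159, adjusted p = 0.0856). The rise in siDCAF8+siLSH with erastin was lost with the same correction (0.108, adjusted p = 0.0663), with median-ratio scaling (0.071, adjusted p = 0.332), and without siNS/Erastin replicate 1 (0.102, adjusted p = 0.243) or siDCAF8+siLSH/Erastin replicate 2 (0.131, adjusted p = 0.151). In oeWDR76 it was not called (0.10, adjusted p = 0.155, and 0.06 with erastin, adjusted p = 0.388), and it was lower after that correction (-0.22 and -0.31).

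XAGE2, a relative of GAGE known from placenta, was near 0 in oeWDR76. It was listed at 0 and 0.19 FPKM in oeWDR76, 1.02 and 1.09 FPKM in siDCAF8+siLSH, 1.03 and 0.75 FPKM in siDCAF8, and 1.02 and 1.02 FPKM in siNS without erastin. Its values with erastin were 0 and 0.09 FPKM in oeWDR76, 1.31 and 1.12 FPKM in siDCAF8+siLSH, 1.03 and 0.28 FPKM in siDCAF8, and 0.85 and 1.21 FPKM in siNS. The 4 oeWDR76 libraries were below all other 12. In the fit with no filter it was 0.89 lower in oeWDR76 on the log2(FPKM + 1) scale without erastin (log2 -0.89, SE 0.178, adjusted p = 0.00139) and 0.95 lower with it (log2 -0.95, adjusted p = 0.000803), where 21.6% of genes were called lower with erastin and 32.9% higher. Its window above holds as many CG dinucleotides as that of MAGEC2.

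Against siNS without erastin, CTAG1A and CTAG2 were called in oeWDR76 and no CTAG gene was called in siDCAF8+siLSH or siDCAF8. Both depended on the scaling: with the GC and length correction CTAG2 was called higher in siDCAF8+siLSH against siNS (0.257, adjusted p = 0.00106) and against siDCAF8 (0.179, adjusted p = 0.0198). CTAG1A and CTAG1B, both encoding NY-ESO-1, summed to 282 and 303 FPKM in oeWDR76, 204 and 210.2 FPKM in siDCAF8+siLSH, 188 and 197 FPKM in siDCAF8, and 212 and 221 FPKM in siNS. The oeWDR76 libraries were highest, at 1.35 times the siNS mean, and siDCAF8 lowest. CTAG2, encoding the related antigen LAGE-1, was at 239 and 272 FPKM in oeWDR76, 224 and 242 FPKM in siDCAF8+siLSH, 215 and 228 FPKM in siDCAF8, and 207 and 229 FPKM in siNS. In oeWDR76 CTAG1A rose by 0.39 log2 (SE 0.139, adjusted p = 0.0173) and CTAG2 by 0.23 (SE 0.074, adjusted p = 0.0112), and with erastin by 0.62 and 0.415 (adjusted p = 0.000633 and 7.62e-05). With the GC and length correction CTAG1A was at -0.21, and -0.12 with erastin, neither called (adjusted p = 0.189 and 0.465). CTAG2 was then called lower, at -0.36, and -0.32 with erastin (adjusted p = 4.55e-05 and 0.000158). CTAG2 with erastin lost its call with quantile normalization (0.136, adjusted p = 0.0912). The CTAG1A and CTAG2 differences without erastin were 0.321 and 0.154 with median-ratio scaling (adjusted p = 0.0501 and 0.0796), neither called. With quantile normalization they were 0.164 and -0.007 (adjusted p = 0.342 and 0.937), also not called. Without siNS replicate 1 they were 0.311 and 0.155 (adjusted p = 0.124 and 0.136), and without oeWDR76 replicate 2 they were 0.252 and 0.134 (adjusted p = 0.185 and 0.176), none called. CTAG2 in siDCAF8+siLSH with erastin was 0.31 log2 above siNS (adjusted p = 0.00138) and 0.38 above siDCAF8 (adjusted p = 0.000459), with 244 and 233 FPKM in siDCAF8+siLSH, 177 and 188 FPKM in siDCAF8, and 201 and 183 FPKM in siNS.

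Set against siDCAF8, the co-depleted cells had 10 members higher and 1 lower without erastin, where 26.4% and 21.7% of all genes were called. With erastin 13 were higher and 0 lower, against 30.4% and 19.3%, and 0 were lower at an unadjusted p under 0.05. With the GC and length correction the erastin split was 8 higher and 3 lower of 22. The family sums in siDCAF8+siLSH were 1.503 and 1.43 times those in siDCAF8 for SSX without and with erastin, 1.16 and 1.18 times for MAGEA, 1.17 and 1.15 times for GAGE, and 1.43 and 1.26 times for PAGE. The MAGEB sum was at 0.95 times in both, and its libraries overlapped without erastin. GAGE5 was 0.30 log2 higher without erastin and 0.29 with it (adjusted p = 0.00277 and 0.00321), of which the difference without erastin lost its call without siDCAF8 replicate 1 (0.217, adjusted p = 0.0564) or siDCAF8+siLSH replicate 2 (0.180, adjusted p = 0.0634).

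Between oeWDR76 and siDCAF8+siLSH, a comparison added after values were seen, the families divided. Of 27 members, 7 were higher and 8 lower in oeWDR76 without erastin, against 38.9% and 33.9% of all genes, and 6 were higher and 8 lower with erastin, against 38.2% and 33.8%. SSX1 was 0.51 and 0.62 log2 higher in oeWDR76 (adjusted p = 2.41e-06 and 2.24e-07). MAGEA1 was lower by 0.53 and 0.38 log2 in oeWDR76 (log2 -0.53 and -0.38, adjusted p = 3.64e-06 and 0.000147) and MAGEA3 likewise (log2 -0.54 and -0.40, adjusted p = 6.46e-07 and 2.21e-05). CTAG1A was 0.66 and 0.575 log2 higher (adjusted p = 0.000403 and 0.00138), but -0.095 and -0.09 after the GC and length correction. That correction gave 1 member higher and 12 lower of 22 under both treatments, and quantile normalization gave 3 higher and 8 lower without erastin and 2 higher and 10 lower with it.

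**Figure D5:**
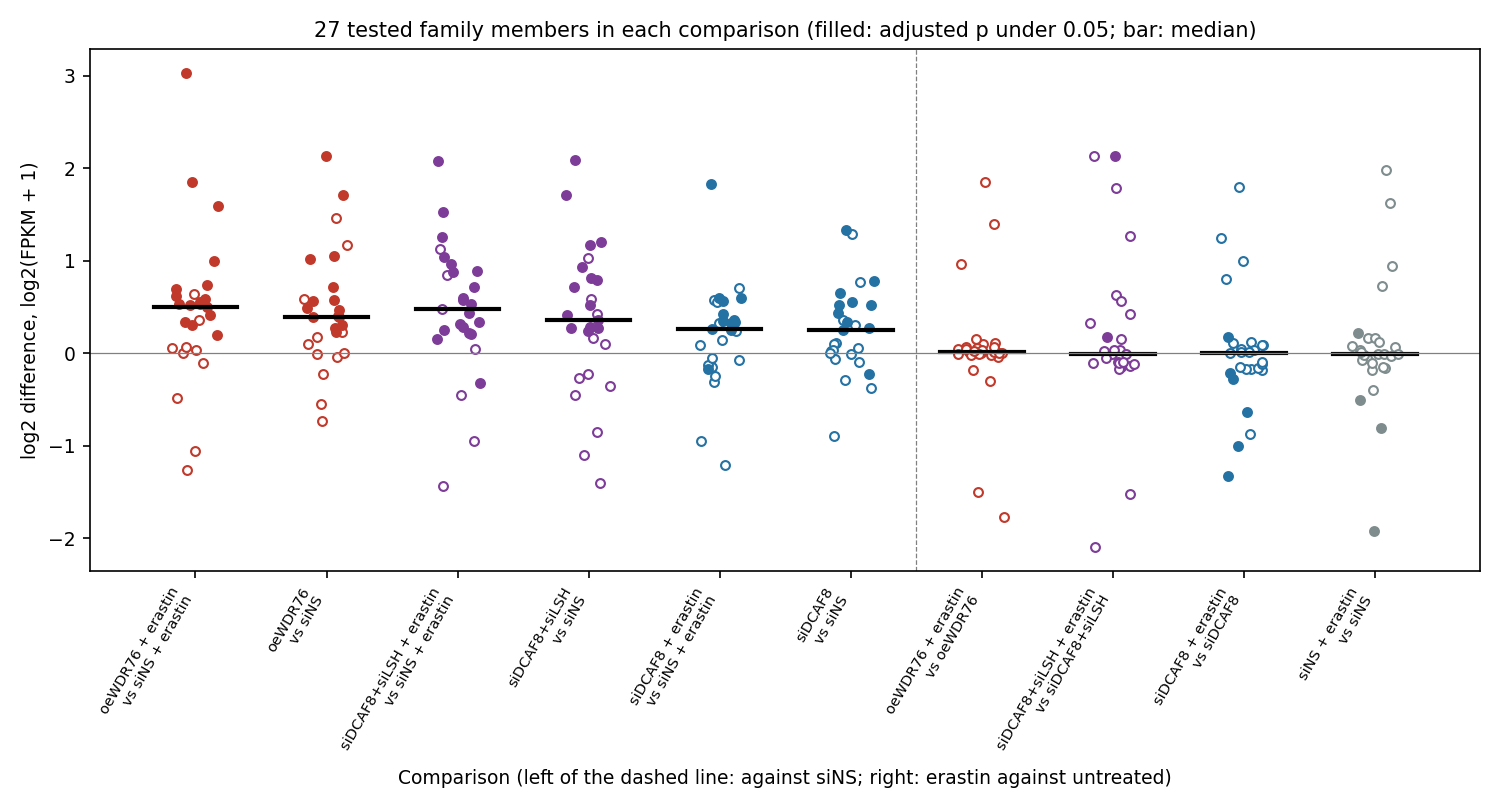
Log2 difference of each of the 27 tested members (points, filled where the adjusted p was under 0.05) in the 6 comparisons with siNS on the left and the 4 comparisons of erastin with no erastin on the right, with bars at medians. Most points lie above 0 in the genotype comparisons, with member medians of 0.255 to 0.50 before any GC and length correction, which split the oeWDR76 calls 6 higher to 6 lower without erastin, and around 0 in the erastin comparisons, with medians of -0.009 to 0.014.

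Erastin itself moved few members. In siNS 1 was higher and 3 lower, against 15.1% and 22.4% of all genes. In siDCAF8 1 was higher and 5 lower, against 18.3% and 22.5%. In oeWDR76 limma called 0 in either direction, against 0.471% higher and 0.977% lower among all genes, with 5 members at an unadjusted p under 0.05. In siDCAF8+siLSH limma called 2 higher and 0 lower, against 10.6% and 9.54%, with 6 lower at an unadjusted p under 0.05. These counts rested on single libraries: 0 members were called in siNS without siNS replicate 2 and 2 without either siNS/Erastin replicate, 3 were called in siDCAF8 without siDCAF8 replicate 1 or siDCAF8/Erastin replicate 2, 1 in siDCAF8+siLSH without replicate 2 of either treatment, and 1 in oeWDR76 without oeWDR76 replicate 2. The sum over all families with erastin was 1.004 times that without it in oeWDR76, 0.983 times in siDCAF8+siLSH, 0.967 times in siDCAF8 and 0.976 times in siNS. With the GC and length correction the splits were 3 higher and 2 lower of 22 in siNS, 4 higher and 2 lower in siDCAF8, and 1 higher and 1 lower in siDCAF8+siLSH, and quantile normalization gave 3 higher and 5 lower in siDCAF8.

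MAGEB2 was the singly mapped member that rose with erastin, by 0.17 log2 in siDCAF8+siLSH (adjusted p = 0.041) and by 0.17 in siDCAF8 (adjusted p = 0.0218), and was not called in siNS. In siDCAF8+siLSH this call was lost without any 1 of its 4 libraries or of the 4 oeWDR76 libraries, at adjusted p up to 0.178, and in siDCAF8 without replicate 1 of either treatment (0.121 and 0.120, adjusted p = 0.196 and 0.191). CTAG2 fell with erastin in siDCAF8, at 177 and 188 FPKM with erastin and 215 and 228 FPKM without it (log2 -0.28, adjusted p = 0.00719), and this call was lost with the GC and length correction (-0.08, adjusted p = 0.294), without siDCAF8 replicate 2 (-0.235, adjusted p = 0.0567) and without siDCAF8/Erastin replicate 1 (-0.236, adjusted p = 0.0608). MAGEA6 fell in siDCAF8, at 69.4 and 67.7 FPKM with erastin and 75.4 and 84.0 FPKM without it (log2 -0.21, adjusted p = 0.0254), a call lost without siDCAF8 replicate 2 or either siDCAF8/Erastin replicate, at adjusted p up to 0.222. The other calls were on members that share nearly all their windows or, for GAGE12I, on a GAGE copy whose window sharing was not counted. MAGEA2B rose in siNS (0.22, adjusted p = 0.0198) where MAGEA2 fell (-0.50, adjusted p = 0.0386), and MAGEA2 also fell in siDCAF8 (-0.63, adjusted p = 0.0112). The MAGEA2 and MAGEA2B sum in siNS was 42.4 and 44.9 FPKM with erastin and 39.7 and 42.7 FPKM without it, which overlap. GAGE12F fell in siDCAF8 (-0.998, adjusted p = 0.0056) and siNS (-0.81, adjusted p = 0.0204), GAGE12I rose in siDCAF8+siLSH (2.135, adjusted p = 0.00177) and fell in siDCAF8 (-1.32, adjusted p = 0.0181), and SSX2 fell in siNS (-1.92, adjusted p = 0.0289). The sum of SSX2 and SSX2B in siNS went the other way, at 5.22 and 4.49 FPKM with erastin and 3.84 and 3.99 FPKM without it, which do not overlap. The GAGE sum with erastin was 0.981 times that without it in siDCAF8+siLSH, 0.995 times in siDCAF8 and 0.982 times in siNS, with overlapping libraries in each. Of these copy-level calls, that of GAGE12I in siDCAF8+siLSH held without any 1 library, and each of the others was lost without any 1 of 2 to 4 libraries, at adjusted p up to 0.533.

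Differences between genotypes in the response to erastin were called for members at shares near or below those over all genes. The response in oeWDR76 minus that in siNS was called for 1 member upward and 1 downward, where 9.04% of all genes were called upward and 5.11% downward. For siDCAF8+siLSH minus siNS it was 5 upward and 1 downward against 15.6% and 9.13%, and for siDCAF8+siLSH minus siDCAF8 4 upward and 1 downward against 14.2% and 9.24%. For siDCAF8 minus siNS limma called 3 upward and 0 downward against 11% and 9.84%, with 4 downward at an unadjusted p under 0.05. Of the called members, MAGEB2 and CTAG2 are not among the genes whose copies change places, though CTAG2 shares 43.1% of its windows with other members. MAGEB2 responded 0.25 log2 more in siDCAF8+siLSH and in siDCAF8 than in siNS (adjusted p = 0.0323 and 0.0357). With 1 library left out, counts ranged from 0 to 4 for oeWDR76 minus siNS, 0 to 7 for siDCAF8+siLSH minus siNS, 1 to 7 for siDCAF8+siLSH minus siDCAF8 and 0 to 3 for siDCAF8 minus siNS. Scaling changed these splits: median-ratio scaling gave 4 upward and 3 downward for siDCAF8+siLSH minus siNS and 3 and 2 for siDCAF8+siLSH minus siDCAF8, quantile normalization gave 5 and 2 and 3 and 2, and the GC and length correction gave 3 and 4 and 0 and 1, and 2 and 1 for siDCAF8 minus siNS.

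Without erastin, the mean level was highest in oeWDR76 for 11 of the 27 members, in siDCAF8+siLSH for 11, in siDCAF8 for 2 and in siNS for 3, and it was lowest in siNS for 16. With erastin it was highest in oeWDR76 for 11, in siDCAF8+siLSH for 12, in siDCAF8 for 2 and in siNS for 2, and again lowest in siNS for 16. These orders use FPKM without the GC and length correction and include copies that share reads. The same orders were not counted over all genes, so no share stands beside them.

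Lists of related genes, chosen by function, were set beside the families. Their values are from the fit without any alternative scaling or correction. Whether they hold under those alternatives, the GC and length correction in oeWDR76 among them, was not examined. Of 8 tested MAGE genes that are expressed in most tissues, 3 were higher and 3 lower in oeWDR76, 2 higher and 5 lower in siDCAF8+siLSH, and 2 higher and 5 lower in siDCAF8 against siNS without erastin, with medians of -0.14, -0.69 and -0.81 log2. MAGED4 and MAGED4B, both listed with a range of 2.77 to 7.05 FPKM, entered these counts and medians as separate genes. Among all genes 41.6% were higher and 32% lower in oeWDR76, 35.9% and 30.9% in siDCAF8+siLSH, and 31% and 29.9% in siDCAF8. MAGED1, an adaptor of neurotrophin receptor signalling, was at 18.55 and 20.0 FPKM in oeWDR76, 15.1 and 16.7 FPKM in siDCAF8+siLSH, 13.7 and 15.8 FPKM in siDCAF8, and 30.3 and 31.1 FPKM in siNS (adjusted p = 1.88e-06, 5.56e-08 and 2.52e-08 against siNS). It was lower than in siNS in all 6 libraries of the altered genotypes. Of 15 other tested cancer-testis and germline genes, 6 were higher and 5 lower in oeWDR76, 6 higher and 3 lower in siDCAF8+siLSH, and 5 higher and 5 lower in siDCAF8. The oeWDR76 and siDCAF8 counts and the higher count in siDCAF8+siLSH are near the shares over all genes, and the lower count in siDCAF8+siLSH is below its share. ACTL8, an actin-like testis gene, was at 18.9 and 22.1 FPKM in oeWDR76, 14.6 and 16.4 FPKM in siDCAF8+siLSH, 13.4 and 13.8 FPKM in siDCAF8, and 5.05 and 5.24 FPKM in siNS (adjusted p = 2.41e-12, 1.12e-10 and 9.5e-10). PRAME, a cancer-testis gene outside the X chromosome, rose in oeWDR76 (0.45, adjusted p = 4.3e-06) and fell in siDCAF8 (-0.42, adjusted p = 1.73e-05).

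Of 38 tested genes of DNA methylation and silencing, 25 were higher and 9 lower in oeWDR76, 26 higher and 5 lower in siDCAF8+siLSH, and 20 higher and 4 lower in siDCAF8, with medians of 0.32, 0.34 and 0.23 log2, against 41.6% and 32%, 35.9% and 30.9%, and 31% and 29.9% of all genes. UHRF1, which brings DNMT1 to newly copied DNA, rose by 1.15, 1.245 and 1.02 log2 (adjusted p = 8.87e-11, 8.39e-11 and 1.39e-09). DNMT1, the maintenance methyltransferase, rose by 0.38, 0.34 and 0.31 (adjusted p = 0.000126, 0.000444 and 0.00125). DNMT3A, a de novo methyltransferase, fell by 0.34, 0.50 and 0.51 (adjusted p = 0.00724, 0.000501 and 0.000526). As for the lists above, these differences were not examined under the alternatives. DNA methylation was not measured in these libraries, and its part in the levels of the families was not tested.

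Of the 8 genes that match only by letters, SSX2IP and CTAGE5 were tested. SSX2IP, a centrosomal protein gene on chromosome 1, was at 5.26 and 4.97 FPKM in oeWDR76, 8.36 and 8.83 FPKM in siDCAF8+siLSH, 7.97 and 8.26 FPKM in siDCAF8, and 7.61 and 6.60 FPKM in siNS without erastin. CTAGE5, on chromosome 14, was at 9.45 and 9.51 FPKM in oeWDR76 and at 9.48 and 9.22 FPKM in siNS. The other 6 averaged below 1 FPKM.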

How the data were processed

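RNA was measured in 16 libraries of HT-1080 cells, extracted with Trizol, amplified with Smart-seq v4 and sequenced on a BGISEQ500 per the labels' protocols. Expression is deposited as FPKM per gene. The submitters' processing notes name StringTie and GRCh38, with the authors' aligner, annotation and strand setting not given in the sources used here. Without counts the depth is unknown. Replicates of a group correlated at r = 0.9958 to 0.9971 with a median SD of 0.046 to 0.068 log2.

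From the 17552 genes with values, 11260 with a mean of at least 1 FPKM were tested as log2(FPKM + 1) with limma 3.58.1 in R 4.3.3 (8 group means, eBayes with a trend, 8 residual and 8.57 prior degrees of freedom, two-sided, Benjamini-Hochberg within each comparison over all tested genes). An adjusted p under 0.05 was called, and only called differences are described as rising or falling. Family sums are FPKM added over members, with ratios taken after adding 0.1 FPKM and no test. Python 3.11.15 with pandas 2.3.3, numpy 2.4.6 and matplotlib 3.10.9 made tables and plots. Promoter windows are from RefSeq on GRCh38.p14, and read sharing was counted in GENCODE transcripts.

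Every member averaging at least 1 FPKM could be named, and others if they reached 0.5 FPKM in any library. The members and lists were chosen with earlier results of these data known. The comparison of oeWDR76 with siDCAF8+siLSH and the sums over copies were added after values were seen. Alternatives were a pseudocount of 0.1 FPKM, no filter, a mean of at least 5 FPKM, median-ratio scaling, quantile normalization, a replicate block, fitting only the groups compared, a correction for GC content (known for 11228 genes) and transcript length, and leaving out each library.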

Additional observations from a re-analysis of the deposited data

Results flagged for a closer look

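For these results, the difference between 2 genotypes in their response to erastin passed limma's test of that difference over all genes. No explanation was tested for any of them.

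MAGEB2 shares no 50-base window with other members, and CTAG2 shares 43.1% of its windows. The MAGEB2 response was 0.25 log2 larger in siDCAF8+siLSH than in siNS (adjusted p = 0.0323) and 0.25 larger in siDCAF8 than in siNS (adjusted p = 0.0357). MAGEB2 levels were higher with erastin in both libraries of siDCAF8+siLSH and siDCAF8. The siDCAF8+siLSH call was lost without any 1 of 6 libraries and the siDCAF8 call without any 1 of 5, siNS replicate 1 and both siNS/Erastin replicates among them, at adjusted p up to 0.12 and 0.148. The CTAG2 response was 0.31 larger in siDCAF8+siLSH than in siDCAF8 (adjusted p = 0.0424), and 0.01 after the GC and length correction, and was lost without any 1 of the 8 libraries of those groups, at adjusted p up to 0.126.

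For GAGE12G the response was 0.27 larger in siDCAF8 than in siNS (adjusted p = 0.0294) and differed by -0.27 between siDCAF8+siLSH and siDCAF8 (adjusted p = 0.0295). GAGE12F differed by 1.42 between siDCAF8+siLSH and siDCAF8 (adjusted p = 0.0137) and by 1.23 between siDCAF8+siLSH and siNS (adjusted p = 0.0213). GAGE12I differed by 3.46 between siDCAF8+siLSH and siDCAF8 (adjusted p = 0.00221) and by 1.97 between siDCAF8+siLSH and siNS (adjusted p = 0.022), with 0 FPKM listed in both untreated siDCAF8+siLSH libraries. GAGE12I held 0.26% of the GAGE sum. That sum with erastin was 0.981 times that without it in siDCAF8+siLSH, 0.995 times in siDCAF8 and 0.982 times in siNS, with overlapping libraries in each. The GAGE12I difference between siDCAF8+siLSH and siDCAF8 was called without any 1 library, and the other GAGE12 differences were each lost without any 1 of 2 to 7 libraries, at adjusted p up to 0.155.

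MAGEA2 differed by 0.96 between siDCAF8+siLSH and siDCAF8 (adjusted p = 0.0165) and by 0.83 between siDCAF8+siLSH and siNS (adjusted p = 0.0261). The MAGEA2 and MAGEA2B sum with erastin was 1.08 times that without it in siDCAF8+siLSH and 0.99 times in siDCAF8, with overlapping libraries in both. Its calls were lost without any 1 of 4 and of 5 libraries, at adjusted p up to 0.0621 and 0.156.

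SSX2 and its copy SSX2B gave opposite signs. SSX2 differed by 3.77 between oeWDR76 and siNS (adjusted p = 0.013), by 3.18 between siDCAF8+siLSH and siNS (adjusted p = 0.0193) and by 2.72 between siDCAF8 and siNS (adjusted p = 0.0456). SSX2B differed by -3.39 between oeWDR76 and siNS (adjusted p = 0.0326) and by -3.14 between siDCAF8+siLSH and siNS (adjusted p = 0.0304). The sum of both copies with erastin was 1.03 times that without it in oeWDR76, 0.92 times in siDCAF8+siLSH, 0.927 times in siDCAF8 and 1.234 times in siNS, where alone the libraries did not overlap. Each of the SSX2 and SSX2B calls was lost without any 1 of 2 to 10 libraries, at adjusted p up to 0.226.

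SSX2IP, which is no SSX gene, differed by 0.38 between oeWDR76 and siNS (adjusted p = 0.0226), by -0.48 between siDCAF8+siLSH and siDCAF8 (adjusted p = 0.00689, but -0.248 and adjusted p = 0.12 with the GC and length correction) and by 0.42 between siDCAF8 and siNS (adjusted p = 0.01). The call in oeWDR76 was lost without any 1 of 5 libraries, at adjusted p up to 0.108, and that of siDCAF8 minus siNS without siNS replicate 1 (0.331, adjusted p = 0.063).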

How the results depend on the processing

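SSX1, SSX3 and MAGEB2 kept their direction and calls against siNS in all 3 altered genotypes and both treatments under every alternative run with all libraries, and also without any 1 library. Of the named differences, 17 values reversed under a change of scaling. With the GC and length correction, oeWDR76 against siNS without erastin gave MAGEA3 -0.041, PAGE5 -0.222, CTAG2 -0.363 and CTAG1A -0.210 log2, and with erastin MAGEA3 -0.173, MAGEA12 -0.019, MAGEC2 -0.190, PAGE5 -0.309, CTAG2 -0.317 and CTAG1A -0.117. The same correction gave CTAG1A -0.095 and -0.091 in oeWDR76 against siDCAF8+siLSH, and GAGE12G 0.138 in siDCAF8 against siNS. With quantile normalization, oeWDR76 against siNS gave CTAG2 -0.007 without erastin, and MAGEA3 -0.033, MAGEC2 -0.166 and PAGE5 -0.137 with erastin. Median-ratio scaling moved 22 of 180 family sum ratios by more than the replicate spread, and the MAGEC and PAGE sums in oeWDR76 with erastin changed sign (log2 -0.040 and -0.058). The cause was not tested.

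Counts of called members under the alternatives, here and above, are given without the share of all genes called in the same fit. For erastin with no filter on low values the counts were 2 in siNS, 3 in siDCAF8 and 1 in siDCAF8+siLSH. Fitting only the groups compared gave 7 in siNS and 7 in siDCAF8+siLSH, where a mean of at least 5 FPKM and median-ratio scaling gave 1 each. For the response relative to siNS with no filter the counts were 0 in oeWDR76, 1 in siDCAF8+siLSH and 1 in siDCAF8, and 1 for siDCAF8+siLSH minus siDCAF8. With a mean of at least 5 FPKM they were 0 in oeWDR76 and 3 in siDCAF8+siLSH relative to siNS. A pseudocount of 0.1 gave 1 for oeWDR76 minus siNS, and the GC and length correction gave 1 for siDCAF8+siLSH minus siDCAF8.

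The labels do not say whether replicate numbers pair the libraries, and the correlations cannot settle it. Deviations of same-numbered libraries correlated at -0.208 to 0.389 over 28 pairs of groups, with 7 above 0.1. The replicate block gave 4 called members for erastin in siDCAF8+siLSH, and 16 in oeWDR76 and 17 in oeWDR76 with erastin against siNS.

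Leaving out each library gave these ranges of called members. For erastin they were 0 to 1 in oeWDR76, 1 to 3 in siDCAF8+siLSH, 3 to 7 in siDCAF8 and 0 to 6 in siNS. Against siNS without and with erastin, they were 13 to 17 and 15 to 18 in oeWDR76, 13 to 16 and 15 to 21 in siDCAF8+siLSH, and 10 to 12 and 9 to 14 in siDCAF8. They were 8 to 12 and 11 to 13 for siDCAF8+siLSH against siDCAF8, and 12 to 17 and 10 to 15 for oeWDR76 against siDCAF8+siLSH. For the response relative to siNS they were 0 to 4 in oeWDR76, 0 to 7 in siDCAF8+siLSH and 0 to 3 in siDCAF8, and 1 to 7 for siDCAF8+siLSH minus siDCAF8.

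FPKM without counts gives no depth, and no interval or detection limit is given for members near 0. Single copies of GAGE, SSX2, SSX4, MAGEA2 and CTAG1 cannot be separated by their reads. With 2 libraries a group, leaving 1 out assumes that the lone library varies like the other groups.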
